A study of Mus musculus with 18 samples.

Results

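The RNA levels of Elac2 and 9 further genes of tRNA and mitochondrial RNA metabolism were followed through prostate tissue of TRAMP mice. The 10 genes (Elac2, Elac1, Trmt10c, Hsd17b10, Slirp, Lrpprc, Trnt1, Tfam, Polrmt and Ssb) were chosen by name for their known roles, with earlier results of these data known. They were found by gene symbol among 55469 gene IDs, and all 10 were measured in all 18 libraries. Total RNA was taken from ventral and lateral lobes of the prostate in males of strain C56NL/6N, as the labels spell it, with 3 mice for each line and age. Every mouse, controls included, carried 1 copy of TRAMP, a transgene that expresses the SV40 T antigens in prostatic epithelium from the Pb promoter and causes prostate tumours. WT-TRAMP mice had intact Elac2. KO-TRAMP mice lacked exon 8 of Elac2 where Cre recombinase was expressed from the same Pb promoter, so cells other than prostatic epithelium kept the gene. A537T-TRAMP mice carried the Ala537Thr change on both copies in all tissues. Each line was sampled at 10 and at 30 weeks of age. Libraries are called by the numbers in the column headers. At 10 weeks WT-TRAMP had libraries 1 to 3, KO-TRAMP libraries 7 to 9 and A537T-TRAMP libraries 4 to 6. At 30 weeks WT-TRAMP had libraries 10 to 12, KO-TRAMP libraries 16 to 18 and A537T-TRAMP libraries 13 to 15.

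A transfer RNA is cut out of a longer precursor. RNase P cuts at its 5′ end, ELAC2 (RNase Z) cuts at its 3′ end, and TRNT1 then adds the CCA tail to which the amino acid is attached. In mitochondria, where most messenger and ribosomal RNAs are separated by tRNAs, these cuts also release the messenger RNAs, and the RNase P there is a protein enzyme made of TRMT10C, HSD17B10 and the nuclease PRORP. ELAC2 works in nuclei as well as in mitochondria, while its short relative ELAC1 is not mitochondrial. POLRMT transcribes the mitochondrial genome together with TFAM, SLIRP and LRPPRC together stabilise its messenger RNAs, and SSB (the La protein) binds the 3′ ends of new nuclear tRNA precursors.

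Both alleles lie in Elac2 (ENSMUSG00000020549.14), a protein-coding gene at chr11:64979038-65002069 on the plus strand of GRCm38. The sequences of the 2 altered places are shown because they define the mutant lines. They are the reference bases of the transcript Elac2-201, which has 25 exons and 2771 bases. Exon 8 of this transcript lies at chr11:64985563-64985621. The codon changed by A537T and its surroundings lie in exon 17 at chr11:64997950-64998006, and the capitals mark that codon (chr11:64997968-64997970).
Exon 8: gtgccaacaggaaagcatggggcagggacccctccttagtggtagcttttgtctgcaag
Exon 17 around the A537T codon: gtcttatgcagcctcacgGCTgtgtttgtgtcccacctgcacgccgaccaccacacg
Exon 8 is 59 bases long, which is not a multiple of 3, so a transcript joined across the missing exon would leave the reading frame and reach a stop codon after 11 further codons. It holds 2.13% of the bases of Elac2-201. The exon and codon numbers are those of the annotation supplied here, counted along Elac2-201. The run of codons for the histidine motif that holds the catalytic zinc begins at codon 542, 5 codons after the A537T position. Gene-level counts do not separate an allele with a single changed codon from its reference. Reads over exon 8 and the stability of a transcript without it were not analysed here.

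Some libraries stood apart in the reads of marker genes of other cell types. The summed reads of 9 seminal vesicle secretory genes, from an organ that was dissected away, made up 0.0487% to 9.05% of the reads in the A537T-TRAMP libraries at 10 weeks, highest in library 5 and next in library 6, against at most 0.000459% in the 10-week WT-TRAMP libraries. In KO-TRAMP at 10 weeks the same sum was 0.000906% to 1.63%, highest in library 9. At that age every library of both mutant lines thus lay above every WT-TRAMP library. At 30 weeks it was between 0.000106% and 4.35% in WT-TRAMP, between 0.000701% and 0.267% in KO-TRAMP and between 0.000313% and 5.45% in A537T-TRAMP, so these groups overlapped. The WT-TRAMP libraries at 10 weeks had no read of Svs3a and Sva, and no other group had a marker of this list at 0 in all of its libraries. The summed reads of 10 neuroendocrine genes were 0.161% and 0.10% in libraries 17 and 18 (KO-TRAMP, 30 weeks), against 0.000285% in library 16 of the same group and at most 0.014% in WT-TRAMP of that age. None of these 10 genes was at 0 in every library of either 30-week group in that comparison. The 10 proliferation genes took 0.292% and 0.205% of the reads in libraries 17 and 18 and 0.0844% in library 16, against 0.0867% to 0.143% in WT-TRAMP. The 8 luminal markers of the prostate were present in every library, but their sum was lower in all KO-TRAMP libraries than in all controls, at 1.25% to 1.39% against 2.22% to 2.97% at 10 weeks and at 0.106% to 0.244% against 0.267% to 0.311% at 30 weeks. In A537T-TRAMP it overlapped the controls at both ages, with 0.148% in library 5. The sum of 8 stromal genes was 0.103% to 0.191% in 10-week A537T-TRAMP against 0.0544% to 0.0747% in WT-TRAMP. The sum of 9 immune genes was 0.0115% to 0.0176% in 30-week KO-TRAMP, highest in library 16, against 0.00751% to 0.00984%. The sum of 5 adipose genes in 30-week A537T-TRAMP was 0.00024% to 0.000912%, against 0.00355% to 0.0111% in WT-TRAMP. The part of these differences in cell content in the results that follow was not tested. Because these are bulk samples, fewer cells of a type and less RNA per cell cannot be told apart.

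The values are the authors' normalized counts, in which an estimated read count is divided by 1 size factor per library that was set within each table of 6 libraries. The estimated reads of a library, as recovered from these values within each table, summed to 9380174 to 14830104. To order the 10 genes by level, the counts were divided by the length of the main annotated transcript in kilobases. In the 10-week WT-TRAMP libraries of the KO-TRAMP table the level per kilobase was highest for Hsd17b10 (539.8 ± 4.40, SD, n = 3) and Ssb (529 ± 22.5), whose libraries overlapped. Trnt1 (186 ± 33.5) and Lrpprc (162 ± 10.2) followed and overlapped each other. Elac2 came next with 115 ± 13.2 normalized counts per kilobase and overlapped neither Lrpprc above it nor Tfam below it. Tfam (75.6 ± 21.1), Slirp (72.2 ± 10.4) and Trmt10c (64.5 ± 2.62) followed, each overlapping the next, and Elac1 (59.3 ± 1.2) and Polrmt (40.5 ± 6.52) were lowest and did not overlap each other. Over the 8 sets of 3 libraries in the 4 tables Hsd17b10 and Ssb always held ranks 1 and 2, Lrpprc and Trnt1 ranks 3 and 4, Tfam and Elac2 ranks 5 and 6, and Polrmt ranks 8 to 10. This order rests on the transcript chosen for each gene. With the shortest annotated coding transcript instead, the order in the same 3 libraries was Ssb (1670.3 per kilobase), Trnt1 (893), Tfam (668), Slirp (582), Hsd17b10 (539.8), Elac2 (457), Lrpprc (162), Polrmt (118), Trmt10c (64.5) and Elac1 (59.3). Hsd17b10 moved from rank 1 to 5 and Elac2 from 5 to 6, while Tfam and Slirp moved up 3 ranks each, since their shortest coding transcripts have 472 and 335 bases against the 4167 and 2701 used.

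Against WT-TRAMP, none of the 10 genes passed an adjusted p of 0.05 in any comparison. The test was limma on log2(normalized count + 1) over all genes with a mean of at least 10, with Benjamini-Hochberg adjustment. Among all genes tested, the share past this threshold was 0.0129% for KO-TRAMP against WT-TRAMP at 10 weeks, 0.00648% for A537T-TRAMP of that age, 0.213% for KO-TRAMP at 30 weeks and 0% for A537T-TRAMP of that age, so a list of 10 genes with no call did not stand apart from the background. At an unadjusted p under 0.05, 1 of the 10 genes was counted in each of the 4 comparisons, against 6.64%, 7.89%, 13.5% and 7.21% of all genes in the same order. Polrmt was that gene in both lines at 10 weeks (higher), Slirp in KO-TRAMP at 30 weeks (higher) and Tfam in A537T-TRAMP at 30 weeks (lower). The libraries of the mutant line and of WT-TRAMP did not overlap for 1 of 10 genes in KO-TRAMP at 10 weeks, where 12.0% of all genes did not. They did not overlap for 3 of 10 genes in A537T-TRAMP at 10 weeks (13.4% of all genes), for 3 of 10 in KO-TRAMP at 30 weeks (20.2%) and for 2 of 10 in A537T-TRAMP at 30 weeks (13.4%). The median log2 fold change of the 10 genes was −0.10, −0.08, 0.10 and 0.05 in these 4 comparisons, beside −0.01, −0.01, 0.01 and 0.00 over all genes tested. These medians moved with single libraries. Without library 8 that of 10-week KO-TRAMP was 0.03, without library 5 or 6 that of 10-week A537T-TRAMP was −0.04 or −0.01 and without library 4 it was −0.21, and without WT-TRAMP library 11 that of 30-week A537T-TRAMP was −0.01. The edgeR quasi-likelihood test and DESeq2 on the recovered reads called none of the 10 genes either. Over all genes DESeq2 called 81, 148, 805 and 165 in the order of the 4 comparisons above, and edgeR 0, 0, 15 and 0.

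**Figure D1:**
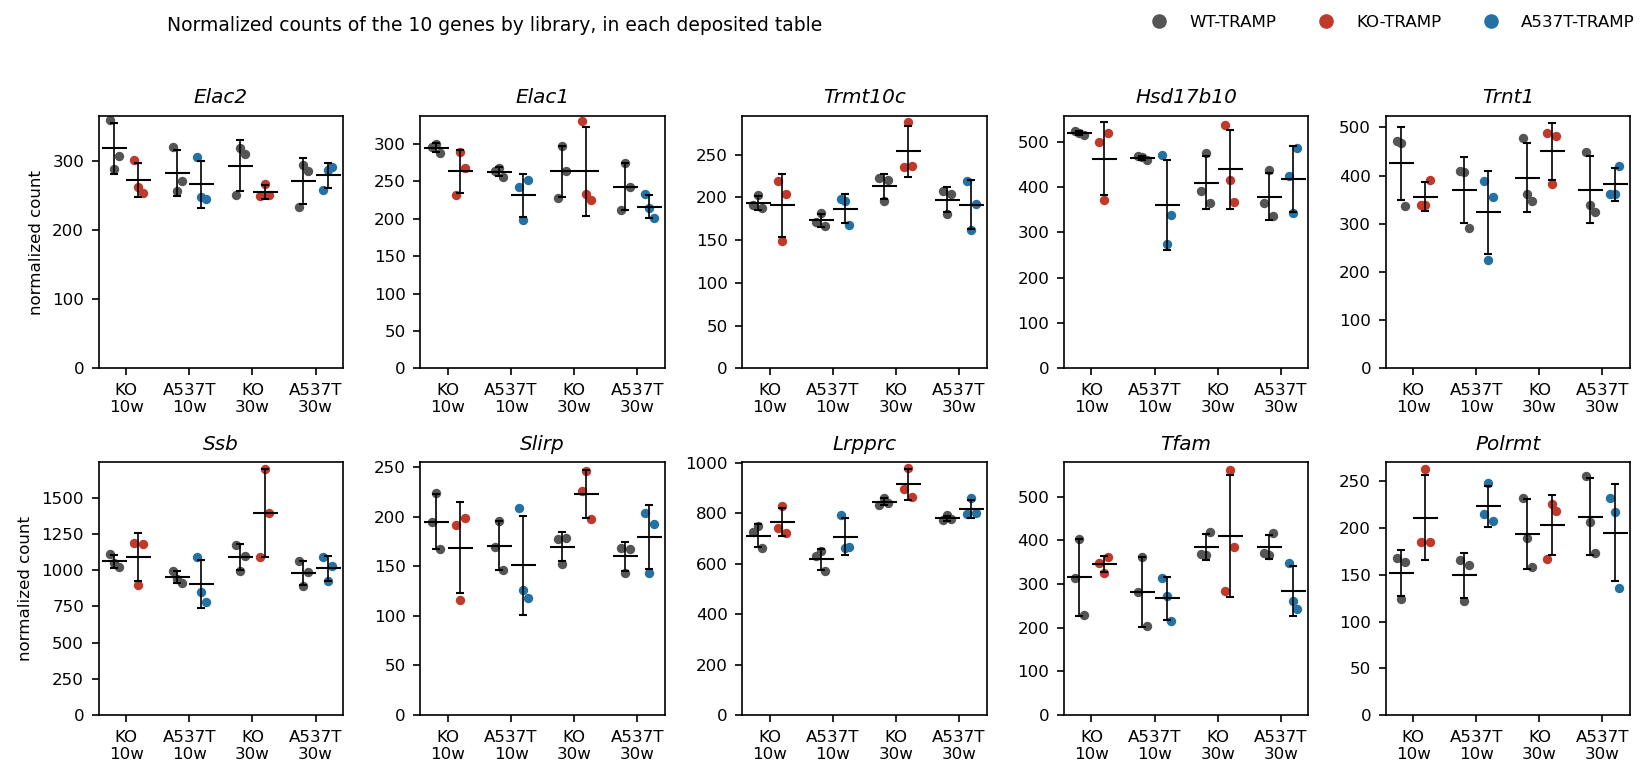
Normalized counts (vertical axis, from 0) of each of the 10 genes in the 3 WT-TRAMP and 3 mutant libraries of the 4 tables; points are libraries, and the black bar and whiskers are the mean and SD. Polrmt is the gene whose 10-week mutant libraries all lie above their 3 WT-TRAMP libraries in both lines, while Elac2 overlaps its controls in all 4 tables.

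The targeted gene, Elac2, encodes the 3′ tRNA nuclease. At 10 weeks its normalized counts were 359, 289 and 307 in WT-TRAMP and 301, 262 and 254 in KO-TRAMP. KO-TRAMP library 7 lay within the range of the controls and the other two lay below it. The fitted level in KO-TRAMP was 85.8% of WT-TRAMP (95% interval 69.0% to 107%; log2 fold change −0.22, SE 0.14, adjusted p = 0.808 by limma). At 30 weeks the counts were 251, 319.6 and 310.0 in WT-TRAMP and 249, 267 and 251 in KO-TRAMP. The lowest control, library 10, lay among the mutant libraries, and the other two lay above all of them. The fitted level was 87.6% of WT-TRAMP (95% interval 68.9% to 112%; log2 fold change −0.19, SE 0.14, adjusted p = 0.522 by limma). Both intervals include no difference, and both exclude a level in the whole tissue below their lower bounds.

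In A537T-TRAMP the counts of Elac2 at 10 weeks were 319.7, 257 and 272 in WT-TRAMP and 306, 249 and 245 in the mutant. The groups overlapped, and the fitted level was 94.3% of WT-TRAMP (95% interval 72.2% to 123%; log2 fold change −0.09, SE 0.16, adjusted p = 0.869 by limma). At 30 weeks they were 233, 295 and 286 in WT-TRAMP and 258, 287 and 292 in A537T-TRAMP. Here too the groups overlapped, with a fitted level of 103% (95% interval 82.9% to 129%; log2 fold change 0.05, SE 0.13, adjusted p = 0.961 by limma). Set against the mean of 10 epithelial genes in the same library, the log2 ratio of Elac2 changed by −0.07 in 10-week KO-TRAMP and by −0.27 at 30 weeks. The second of these differences separated all 3 KO-TRAMP libraries from all 3 controls, with an exact two-sided permutation p of 0.1, the smallest that 3 libraries against 3 can give. In A537T-TRAMP the change in this ratio was 0.23 at 10 weeks (exact permutation p = 0.3) and −0.07 at 30 weeks (exact permutation p = 0.5). This ratio also moves with the epithelial genes. Their summed reads were 0.150% to 0.269% in 10-week A537T-TRAMP against 0.265% to 0.292% in WT-TRAMP. In 30-week KO-TRAMP they were 0.274% to 0.307% against 0.212% to 0.274%.

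Elac1, the short form of RNase Z, was lower in all 3 A537T-TRAMP libraries at 10 weeks (243, 199 and 252) than in the WT-TRAMP libraries (264, 268 and 257). The difference did not pass the test (log2 fold change −0.19, SE 0.15, adjusted p = 0.672 by limma). The spread between libraries of a group was 0.13 (SD, log2 scale). In the other comparisons the groups overlapped, with log2 fold changes of −0.17 and −0.01 for KO-TRAMP at the younger and the older age and −0.16 for 30-week A537T-TRAMP. The ratio of Elac2 to Elac1 differed from WT-TRAMP by −0.05 and −0.18 on the log2 scale in KO-TRAMP at 10 and 30 weeks, and by 0.11 and 0.21 in A537T-TRAMP. The exact permutation p was 0.2 or more in all 4 cases.

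Trmt10c encodes the tRNA methyltransferase of mitochondrial RNase P and Hsd17b10 the dehydrogenase that partners it. The gene of the nuclease subunit, Prorp, was on the wider mitochondrial list and overlapped its controls in all 4 comparisons, with log2 fold changes between −0.03 and 0.06. In KO-TRAMP at 30 weeks Trmt10c was at 236, 289 and 237 normalized counts against 223, 196 and 220.0 in WT-TRAMP. All 3 mutant libraries lay above the controls, and the highest was library 17 (log2 fold change 0.25, SE 0.15, adjusted p = 0.445 by limma). Its other log2 fold changes were −0.04 for 10-week KO-TRAMP and 0.11 and −0.05 for A537T-TRAMP at the younger and the older age, with overlapping groups. Hsd17b10 at 10 weeks was at 469.6, 275 and 337 in A537T-TRAMP against 468, 465 and 459.6 in WT-TRAMP. Library 4 was at the level of the controls, while libraries 5 and 6, the 2 with most seminal vesicle RNA, were lower (log2 fold change −0.40, SE 0.20, adjusted p = 0.600 by limma). The part of that admixture in the difference was not tested. Hsd17b10 overlapped its controls in the other 3 comparisons, at −0.18, 0.09 and 0.13 on the log2 scale for KO-TRAMP at 10 weeks, KO-TRAMP at 30 weeks and A537T-TRAMP at 30 weeks. The log2 ratio of Trmt10c to Hsd17b10 was higher in all 3 mutant libraries than in all 3 controls at 10 weeks, by 0.14 in KO-TRAMP and by 0.51 in A537T-TRAMP (exact permutation p = 0.1 each, the smallest possible). Without library 5, the library with most seminal vesicle RNA, the A537T-TRAMP difference was 0.29, and without library 7 the KO-TRAMP difference was 0.094. These 2 comparisons share their WT-TRAMP libraries. At 30 weeks the ratio differed by 0.16 in KO-TRAMP and −0.19 in A537T-TRAMP, with exact permutation p of 0.5 and 0.4.

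Trnt1, the CCA-adding enzyme, overlapped its controls in all 4 comparisons, with log2 fold changes of −0.24 at 10 weeks and 0.19 at 30 weeks for KO-TRAMP, and of −0.21 and then 0.05 for A537T-TRAMP. Its counts carry an uncertainty, since 16% of the 31-base words of Trnt1-201 also occur in transcripts of Riok3 and such reads fit either gene. Among the other 9 genes that share was at most 1.7%. Ssb, the La protein, had the largest counts. In KO-TRAMP at 30 weeks it was at 1091, 1695 and 1394 against 1174, 994 and 1099 in WT-TRAMP. Library 16 lay within the controls, and libraries 17 and 18, the 2 with the high neuroendocrine and proliferation sums, lay above them (log2 fold change 0.34, SE 0.18, adjusted p = 0.421 by limma). The part of cell make-up in this was not tested. The other log2 fold changes of Ssb were 0.03, −0.08 and 0.05 for KO-TRAMP at 10 weeks, A537T-TRAMP at 10 weeks and A537T-TRAMP at 30 weeks.

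Slirp and Lrpprc encode the partners of the complex that keeps mitochondrial messenger RNAs stable. In KO-TRAMP at 30 weeks Slirp was at 226, 246 and 197 normalized counts against 178, 153 and 179 in WT-TRAMP. Every KO-TRAMP library lay above every control. The immune sum was likewise higher and the luminal sum lower in all 3 of these libraries than in all controls, and the part of cell content in the Slirp difference was not tested. The fitted level was 131% of WT-TRAMP (95% interval 101% to 169.9%), with an unadjusted limma p of 0.0437 and an adjusted p of 0.365. Without library 17 the log2 fold change was 0.32, without library 18 it was 0.47 and without library 16 it was 0.38. In that line at 10 weeks Slirp was at 192, 116 and 198 against 194, 224 and 167. Library 8 alone was below the controls (log2 fold change −0.24, SE 0.23, adjusted p = 0.883 by limma). In A537T-TRAMP Slirp overlapped WT-TRAMP at 10 weeks (−0.21 on the log2 scale) and at 30 weeks (0.15).

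Lrpprc varied least of the 10 genes within groups in 3 of the 4 comparisons (Trmt10c did in 10-week A537T-TRAMP), with a spread between libraries of a group of 0.07 and 0.05 (SD, log2 scale) in the 30-week tables of KO-TRAMP and A537T-TRAMP, beside medians of 0.32 and 0.24 over all genes. Its mutant libraries lay above the controls, with no overlap, in A537T-TRAMP at 10 weeks (791, 663 and 665 against 628, 649 and 571), in KO-TRAMP at 30 weeks (896, 980.3 and 864 against 834, 859.9 and 841) and in A537T-TRAMP at 30 weeks (795, 859 and 798 against 774, 792 and 774). These differences were small, with log2 fold changes of 0.19, 0.11 and 0.07, and none passed the test (adjusted p = 0.633, 0.575 and 0.892 by limma). At 10 weeks in KO-TRAMP the groups overlapped and the log2 fold change was 0.10. The log2 ratio of Slirp to Lrpprc moved by 0.28 in KO-TRAMP at 30 weeks, where all mutant libraries were above all controls (exact permutation p = 0.1, the smallest possible). It moved by −0.34 in KO-TRAMP at 10 weeks, by −0.41 in A537T-TRAMP at 10 weeks and by 0.09 in A537T-TRAMP at 30 weeks, with exact permutation p of 0.5, 0.2 and 0.6.

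Polrmt, the mitochondrial RNA polymerase, had the largest differences of the 10 genes at 10 weeks. Its normalized counts were 168, 124 and 164 in WT-TRAMP and 185, 263 and 186 in KO-TRAMP. In the other table they were 165, 122 and 161 in WT-TRAMP and 215, 249 and 208 in A537T-TRAMP. All mutant libraries lay above all controls in both lines. The seminal vesicle sum was likewise higher in every one of these mutant libraries than in every control. The luminal sum was lower in all KO-TRAMP libraries, and the stromal sum was higher in all A537T-TRAMP libraries. The part of cell content in the Polrmt differences was not tested. The same 3 WT-TRAMP libraries serve both comparisons, so the 2 results are not independent, and WT-TRAMP library 2 was the lowest in both tables. The fitted level was 138% of WT-TRAMP in KO-TRAMP (95% interval 101% to 190.0%) and 150.3% in A537T-TRAMP (95% interval 112% to 203%). The unadjusted limma p was 0.0468 and 0.0142, and the adjusted p was 0.742 and 0.600. Without library 2 the log2 fold changes fell from 0.47 to 0.33 and from 0.59 to 0.45. KO-TRAMP library 8 was the highest, and without it the log2 fold change was 0.30. Without library 5, the A537T-TRAMP library with most seminal vesicle RNA, it was 0.51. At 30 weeks the groups overlapped in KO-TRAMP (167, 226 and 218 against 233, 189 and 158) and in A537T-TRAMP (233, 217 and 136 against 256, 207 and 174), with log2 fold changes of 0.08 and −0.14.

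Tfam, the factor that packages mitochondrial DNA and starts its transcription, differed most in A537T-TRAMP at 30 weeks, where its counts were 349, 260.0 and 242 against 371, 366 and 417 in WT-TRAMP. All 3 A537T-TRAMP libraries lay below the controls, library 13 by the least. The fitted level was 73.0% of WT-TRAMP (95% interval 56.3% to 94.8%), with an unadjusted limma p of 0.0244 and an adjusted p of 0.673. The adipose sum separated the same libraries in the same direction, and its part in the difference was not tested. In KO-TRAMP at 30 weeks Tfam spread widely, at 283, 561 and 385 against 369, 367 and 418. Library 16 was below the controls and library 17 above them (log2 fold change 0.04, SE 0.25, adjusted p = 0.945 by limma). At 10 weeks the log2 fold changes were 0.17 in KO-TRAMP and −0.06 in A537T-TRAMP, with overlapping groups.

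The promoters of the 10 genes were searched for 3 motifs of factors known for nuclear genes of mitochondria and growth: GCGCATGC for NRF1, CCGGAAG for ETS factors and CACGTG for E-box factors, on both strands. RefSeq promoters of GRCm38, from 250 bases before to 50 bases after the start, were at hand for 8 of the 10 genes (all but Elac1 and Trnt1). On GRCm38, Polrmt lies at chr10:79736123-79746581 (minus strand), Tfam at chr10:71225464-71238280 (minus strand), Slirp at chr12:87443896-87452206 (plus strand, overlapped by Alkbh1 and Snw1 on the opposite strand) and Trmt10c at chr16:56032609-56037819 (minus strand). These gene bounds are those of GENCODE, whose starts can differ from the RefSeq starts. The ETS matches of Tfam and Trmt10c lie before the RefSeq start but inside the GENCODE bounds. The stretches that hold a match in Polrmt, Tfam, Slirp and Trmt10c are shown, in the direction of the gene and with the motif in capitals (CTTCCGG is the ETS motif on the opposite strand).
Polrmt, NRF1 motif (chr10:79746698-79746723, minus strand): agtatttctGCGCATGCtctcttgcc
Polrmt, ETS motif (chr10:79746609-79746633, minus strand): ctaagagcgCTTCCGGcagtcgcag
Tfam, ETS motif (chr10:71238076-71238100, minus strand): tgccgcggaCCGGAAGtccgggctt
Slirp, ETS motif (chr12:87443741-87443765, plus strand): gcggaaaagCTTCCGGaaagcatcc
Slirp, ETS motif (chr12:87443839-87443863, plus strand): cagtttggcCCGGAAGcagaactcg
Slirp, ETS motif (chr12:87443876-87443900, plus strand): tggcaggttCTTCCGGggtcacgac
Trmt10c, ETS motif (chr16:56037783-56037807, minus strand): ggtgccggaCTTCCGGcggccgcgg
The NRF1 motif was found in 1 of the 8 promoters, that of Polrmt, and in 2.71% of all 32851 promoters of this length. The ETS motif was found in 4 of the 8 (Polrmt, Slirp, Tfam and Trmt10c; Slirp held 3 matches) and in 8.86% of all promoters. The E-box was found in none of the 8 and in 7.15% of all. These matches are letters in a window, and binding was not measured.

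**Figure D2:**
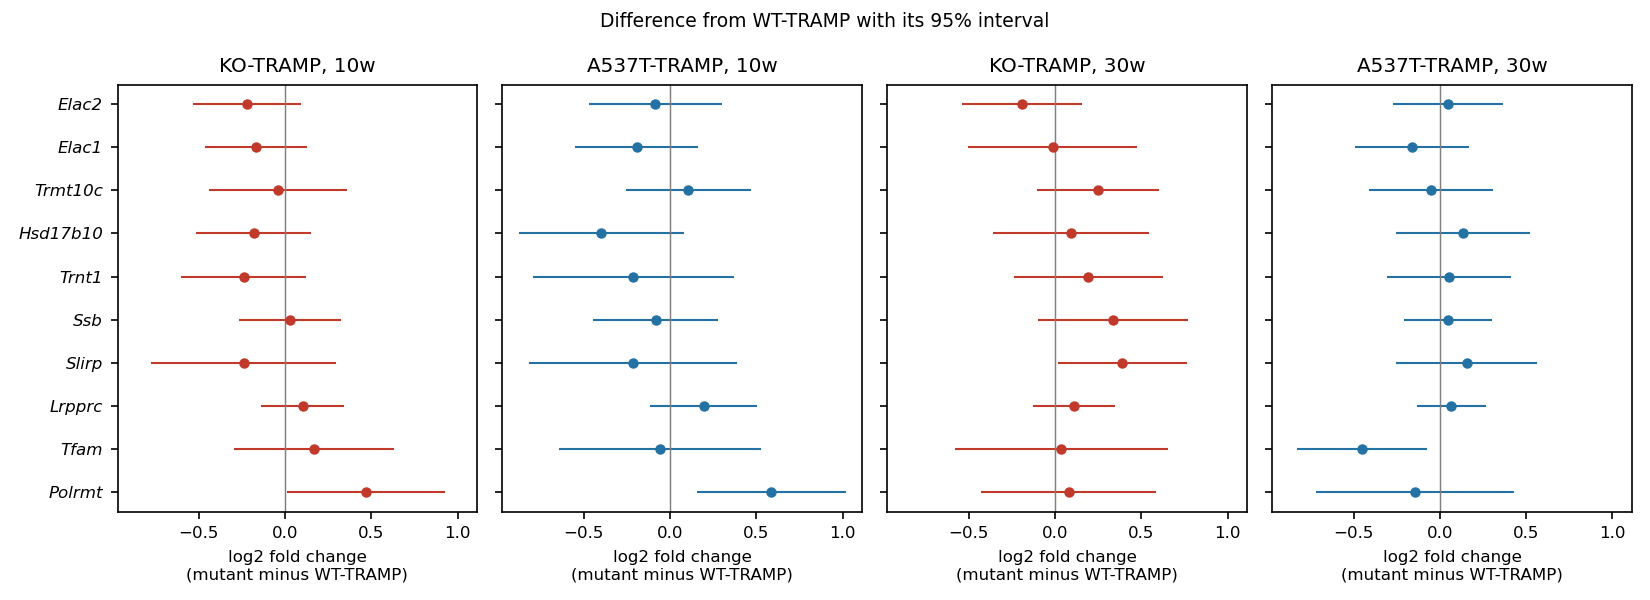
Log2 fold change of each of the 10 genes (mutant minus WT-TRAMP, log2 of normalized count + 1) in the 4 comparisons, with its 95% limma interval; the grey line is no difference. The intervals exclude 0, before adjustment for the number of genes, for Polrmt at 10 weeks in both lines, Slirp in KO-TRAMP at 30 weeks and Tfam in A537T-TRAMP at 30 weeks.

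The change of each effect with age was tested as the difference between the log2 fold changes at 30 and at 10 weeks, over 12 libraries. None of the 10 genes passed an adjusted p of 0.05 in either line, where 0% of all genes did for KO-TRAMP and 0% for A537T-TRAMP. At an unadjusted p under 0.05 the count was 0 of 10 in KO-TRAMP and 1 of 10 in A537T-TRAMP, against 13.1% and 6.36% of all genes. The effect on Polrmt differed between the ages by −0.73 in A537T-TRAMP (95% interval −1.42 to −0.04), with an unadjusted limma p of 0.0407 and an adjusted p of 0.721. In KO-TRAMP its effect differed by −0.39 (95% interval −1.04 to 0.27). The effect of KO-TRAMP on Slirp was 0.63 higher at 30 weeks (95% interval −0.02 to 1.28; adjusted p = 0.390 by limma), and that of A537T-TRAMP on Hsd17b10 was 0.53 higher (95% interval −0.07 to 1.13; adjusted p = 0.721). For Elac2 the difference was 0.03 in KO-TRAMP (95% interval −0.39 to 0.45) and 0.13 in A537T-TRAMP (95% interval −0.32 to 0.58).

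A pair of wider lists placed the 10 genes among others of the same pathways. The first held 32 further genes. Most of these serve the synthesis, processing and decay of mitochondrial RNA, and some, such as Polg, Polg2 and Twnk, the replication of mitochondrial DNA. The second held 23 genes for the 5′ processing, splicing and export of nuclear tRNAs, of which 22 passed the filter on low values. No gene of either list passed an adjusted p of 0.05 in any of the 4 comparisons by limma, edgeR or DESeq2. Of all 16900 genes tested in 30-week KO-TRAMP, limma called 36, edgeR 15 and DESeq2 805. At an unadjusted limma p under 0.05 the mitochondrial list counted 1 gene in KO-TRAMP at either age, 1 in 30-week A537T-TRAMP and 0 in 10-week A537T-TRAMP, and the nuclear tRNA list counted 1 gene in each line at 30 weeks and 0 at 10 weeks. Over all genes tested the share was 6.64% and 13.5% in KO-TRAMP at 10 and 30 weeks, and 7.89% and 7.21% in A537T-TRAMP. In KO-TRAMP 16 genes of the mitochondrial list were higher and 16 lower than in WT-TRAMP at 10 weeks, and 19 were higher and 13 lower at 30 weeks. For A537T-TRAMP the counts were 13 higher and 19 lower at the younger age and 17 higher and 15 lower at the older. Its median log2 fold change lay between −0.04 and 0.06. Of the 22 nuclear tRNA genes 17 were lower and 5 higher in KO-TRAMP at 10 weeks, with a median of −0.09, and 16 were lower and 6 higher in A537T-TRAMP at 10 weeks, with a median of −0.16. At 30 weeks 19 were higher and 3 lower for KO-TRAMP (median 0.17), and for A537T-TRAMP 13 were higher and 9 lower (median 0.01). Single libraries carried much of this. Without library 8 the 10-week KO-TRAMP counts were 12 higher and 10 lower (median 0.02). Without library 5 those of 10-week A537T-TRAMP were 9 higher and 13 lower (median −0.05), and without library 6 they were again 9 and 13 (median −0.09). Without library 4, the A537T-TRAMP library with least seminal vesicle RNA, the median was −0.32. Without WT-TRAMP library 1 the 10-week medians were −0.04 in KO-TRAMP and −0.10 in A537T-TRAMP. The list took 0.048% and 0.0605% of the reads in libraries 5 and 6 and 0.0832% in library 4, against 0.0716% to 0.0786% in WT-TRAMP. In KO-TRAMP at 30 weeks 17 to 19 of 22 were higher whichever library was left out, with medians of 0.10 (without library 10) to 0.27 (without library 11 or 16). Leaving out 1 library at a time cannot remove libraries 17 and 18 together. There the list took 0.109% and 0.0957% of the reads, and 0.0743% in library 16, against 0.0702% to 0.0719% in WT-TRAMP. Without library 14 the 30-week A537T-TRAMP counts were 19 higher and 3 lower (median 0.17), and without library 13 or library 15 the median was −0.02. Over all genes tested 48.9%, 49.1%, 50.9% and 50% were higher in KO-TRAMP at 10 weeks, A537T-TRAMP at 10 weeks, KO-TRAMP at 30 weeks and A537T-TRAMP at 30 weeks.

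Within these lists the genes with the smallest p in each direction were as follows. In KO-TRAMP at 10 weeks they were Fastkd1 (0.22) and Fastkd3 (−0.51), members of a family of mitochondrial RNA-binding proteins, in the first list, and Pop1 (0.17) and Rpp21 (−0.42), subunits of nuclear RNase P, in the second. In A537T-TRAMP at 10 weeks they were Fastk (0.27), of the same family as Fastkd1, and Lactb2 (−0.53), a nuclease, in the first list, and Tsen54 (0.35), of the tRNA splicing endonuclease, and Rpp30 (−0.54), of RNase P, in the second. In KO-TRAMP at 30 weeks they were Grsf1 (0.29), a protein of the mitochondrial RNA granule, Polg2 (−0.35), the accessory subunit of the mitochondrial DNA polymerase, Ddx1 (0.36), a helicase of the tRNA ligase complex, and Tsen54 (−0.20). In A537T-TRAMP at 30 weeks they were Mterf3 (0.40), a factor of mitochondrial ribosome assembly, Tefm (−0.42), the mitochondrial transcription elongation factor, Pop5 (0.37), of RNase P, and Xpo5 (−0.14), an exporter of small RNAs. All values are log2 fold changes against WT-TRAMP, and no adjusted p among them was under 0.338.

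For KO-TRAMP at 30 weeks the counts of these lists changed with library 16. Without it, which leaves the 2 libraries with high neuroendocrine and proliferation sums, 7 of the 22 nuclear tRNA genes and 3 of the 32 mitochondrial genes passed an adjusted p of 0.05 by limma, all higher, and 18.1% of all genes tested did. The 7 were Rtraf, Pop1, Rpp21, Rpp30, Xpot, Ddx1 and Trpt1, with log2 fold changes of 0.45 to 1.38, and the 3 were Mtres1, Grsf1 and Mterf2, at 0.36 to 1.19. None of the 10 genes passed in that setting. Ssb had a log2 fold change of 0.50 there. Its smallest adjusted p in this comparison, over the fits that leave out a library, was 0.0522 by limma, close to the threshold.

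**Figure D3:**
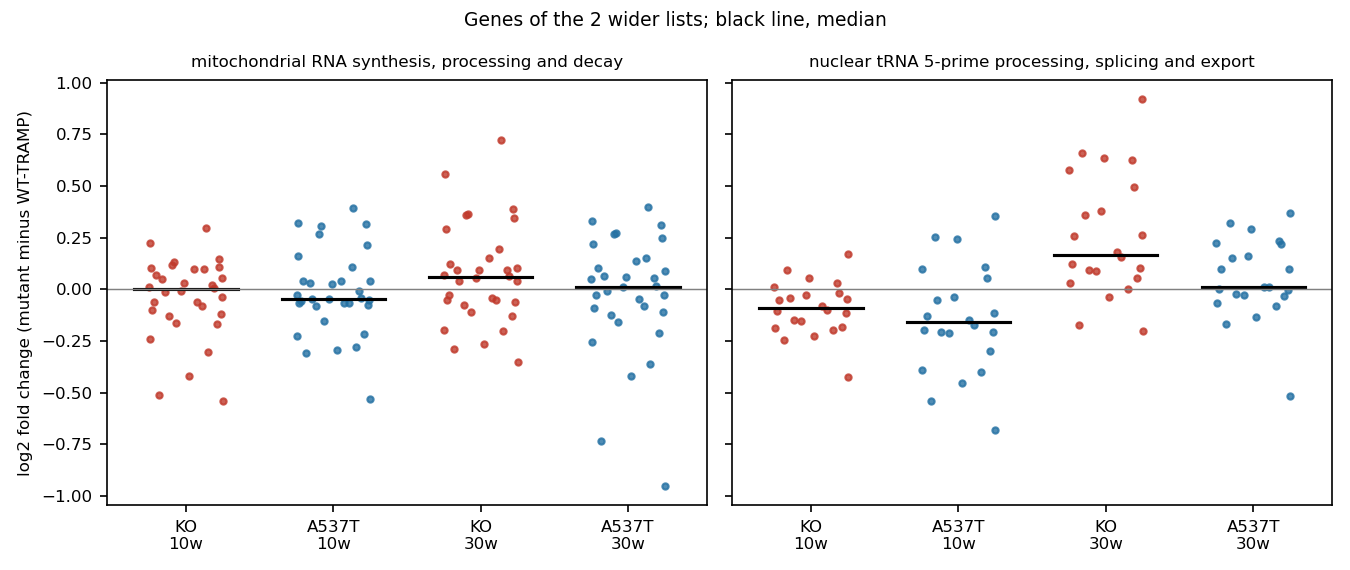
Log2 fold change (mutant minus WT-TRAMP) of every tested gene of the 2 wider lists in the 4 comparisons; each point is a gene and the black line is the median. Most nuclear tRNA genes lie above 0 in KO-TRAMP at 30 weeks (19 of 22) and below 0 in the same line at 10 weeks (17 of 22, and 10 of 22 without library 8), while the mitochondrial list stays centred near 0. In KO-TRAMP at 30 weeks the nuclear tRNA list took 0.109% and 0.0957% of reads in libraries 17 and 18 and 0.0743% in library 16.

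Sfpq, Nono and Pspc1, which encode the core proteins of nuclear paraspeckles, were followed as a further list. Nono in 30-week KO-TRAMP was at 2912, 3691 and 3469 normalized counts against 2771, 2799 and 2558 in WT-TRAMP. The groups did not overlap (log2 fold change 0.30, SE 0.12, adjusted p = 0.365 by limma). Of all genes tested in that comparison, 20.2% did not overlap either. Nono was highest in libraries 17 and 18, which had the high neuroendocrine and proliferation sums. Library 16, at 2912, lay nearest to the controls. The part of cell make-up in the Nono difference was not tested. Sfpq and Pspc1 overlapped their controls in that comparison, at 0.08 and 0.07. In the other 3 comparisons all 3 genes overlapped WT-TRAMP, with log2 fold changes between −0.12 and 0.09.

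How the 10 genes varied together was described by Pearson's r across the 6 libraries of a table, on the log2(normalized count + 1) scale, averaged over the 4 tables. The libraries of a table share their depth scaling, and the WT-TRAMP libraries occur in 2 tables each. Over the 45 pairs the median of this mean r was 0.06, and 26 pairs were positive. The highest was Slirp with Ssb (0.83, between 0.72 and 0.91 in single tables), followed by Trmt10c with Ssb (0.77) and Trmt10c with Slirp (0.75). Slirp with Lrpprc, the partners of a complex, had a mean r of 0.07, between −0.51 and 0.81. The lowest was Hsd17b10 with Polrmt (−0.57). For Elac2 the mean r was 0.33 with Hsd17b10, 0.28 with Elac1 and −0.41 with Polrmt, and that with Polrmt was negative in all 4 tables (−0.69 to −0.10). Among 11401 other genes with a mean of at least 50 in each table, the 3 with the highest mean r with Elac2 were Lgals8, a galectin (0.83), Polr1a, the large subunit of RNA polymerase I (0.82), and Glrx2, a mitochondrial glutaredoxin (0.81). The median over these genes was 0.08.

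**Figure D4:**
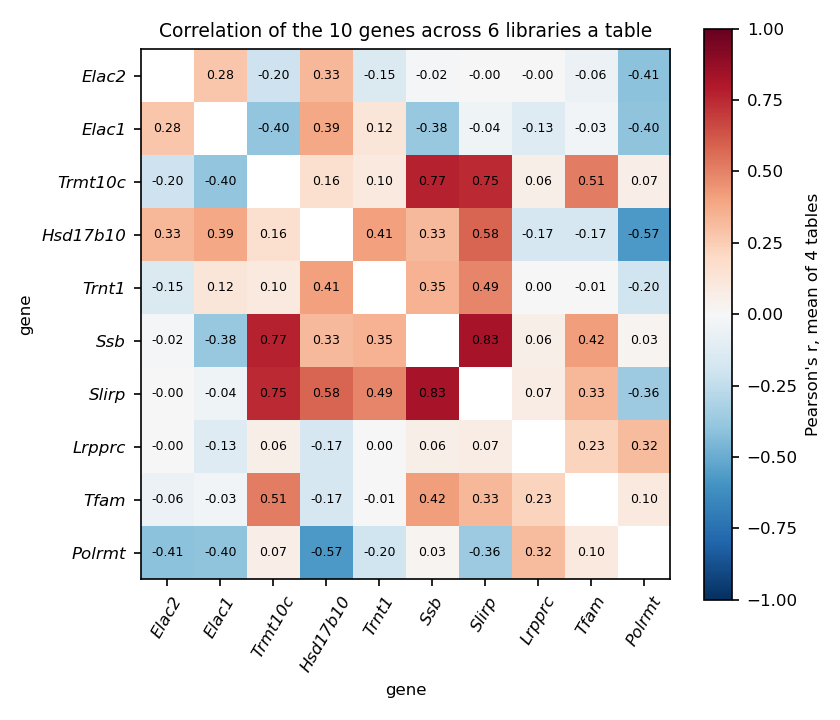
Pearson's r between each pair of the 10 genes across the 6 libraries of a table, as the mean of 4 tables (colour scale from −1, blue, to 1, red). Ssb, Slirp and Trmt10c form the reddest triangle, at 0.75 to 0.83, and Elac2 has no pair above 0.33.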

How the data were processed

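RNA-seq libraries of ventral and lateral prostate lobes were made from total RNA (TruSeq, NovaSeq). The authors trimmed reads with Trim Galore 0.4.1 and cutadapt 1.18, aligned them with STAR 2.7.3a to GRCm38.p6 masked for nuclear copies of mitochondrial sequence, quantified GENCODE genes with Salmon using strand, and normalized with DESeq2. The deposited values used here are a signal: normalized counts, that is, estimated reads scaled by a size factor that each library received separately in each of 4 tables. All of them were whole multiples of 1 step per library (100%, to within 0.001 reads), so whole reads were recovered for edgeR 4.0.16 and DESeq2 1.42.0 as alternatives. WT-TRAMP libraries have different values in their 2 tables (30.9% to 37.6% of genes agree in recovered reads), so comparisons stayed within a table. These values do not differ by 1 factor per library. In 30-week WT-TRAMP mean Polrmt was 193 beside KO-TRAMP and 212 beside A537T-TRAMP, while mean Elac2 was 293 and 271. The recovered reads are therefore estimates that belong to a table, not counts of sequenced reads. The authors' tables of their own fold changes were not used.

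Column headers give library numbers only. Columns found in both tables of an age were taken as WT-TRAMP, the others as the mutant line of that table. Tests used limma 3.58.1 in R 4.3.3 (trend, two-sided) on log2(normalized count + 1) for genes with a mean of at least 10, which understates changes of low genes. Age effects were tested as an interaction with an intercept per table, and ratios by exact permutation. The members and lists were chosen with earlier results of these data known. Named list genes had the smallest p in each direction of a comparison. The fits were tested on simulated data with changes larger than any found here for the 10 genes. That test does not cover differences as small as these. Positions and transcripts are GENCODE vM21 (GRCm38), an earlier release than the authors used. Alternatives were pseudocounts of 0.5 and 8, no filter, a mean of at least 50, TMM scaling, edgeR, DESeq2 and each library left out.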

Additional observations from a re-analysis of the deposited data

How the results depend on the processing

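The absence of calls among the 10 genes held in each alternative run for the 4 comparisons with WT-TRAMP: pseudocounts of 0.5 and 8, no filter, a mean of at least 50, TMM scaling, edgeR, DESeq2 and each library left out. None of these moved a gene across the threshold, and outside the settings that leave out a library the direction of a difference changed only for Elac1 in KO-TRAMP at 30 weeks (−0.01, and 0.0069 with edgeR). Counts over all genes depended on the tool: at 10 weeks DESeq2 on recovered reads called 81 genes for KO-TRAMP and 148 for A537T-TRAMP, limma 2 and 1, and edgeR 0 and 0 (1068 and 1363 at an unadjusted p under 0.05). At 30 weeks DESeq2 called 805 and 165, limma 36 and 0 (1173 unadjusted), and edgeR 15 and 0 (1382 unadjusted). With 3 libraries a group the intervals are wide. Genes called in the mitochondrial list for KO-TRAMP at 30 weeks ranged from 0 to 3, and in the nuclear tRNA list from 0 to 7, over the fits that leave out a library. The same fits gave log2 differences of both signs, over these ranges, for Elac1 in the A537T-TRAMP age effect (−0.075 to 0.12), Elac1 in KO-TRAMP at 30 weeks (−0.19 to 0.086), Elac1 in the KO-TRAMP age effect (−0.022 to 0.25), Elac2 in A537T-TRAMP at 10 weeks (−0.19 to 0.0064), Elac2 in A537T-TRAMP at 30 weeks (−0.059 to 0.11), Elac2 in the KO-TRAMP age effect (−0.079 to 0.10), Hsd17b10 in KO-TRAMP at 30 weeks (−0.061 to 0.21), Lrpprc in the KO-TRAMP age effect (−0.044 to 0.067), Polrmt in A537T-TRAMP at 30 weeks (−0.29 to 0.099), Polrmt in KO-TRAMP at 30 weeks (−0.055 to 0.22), ratio of Elac2 to Elac1 in KO-TRAMP at 10 weeks (−0.21 to 0.046), ratio of Elac2 to Elac1 in KO-TRAMP at 30 weeks (−0.28 to 0.019), ratio of Elac2 to epithelium in A537T-TRAMP at 30 weeks (−0.15 to 0.0025), ratio of Elac2 to epithelium in KO-TRAMP at 10 weeks (−0.17 to 0.0088), ratio of Slirp to Lrpprc in A537T-TRAMP at 30 weeks (−0.029 to 0.28), ratio of Trmt10c to Hsd17b10 in KO-TRAMP at 30 weeks (−0.012 to 0.36), Slirp in KO-TRAMP at 10 weeks (−0.38 to 0.0089), Ssb in A537T-TRAMP at 10 weeks (−0.22 to 0.018), Ssb in A537T-TRAMP at 30 weeks (−0.018 to 0.11), Ssb in KO-TRAMP at 10 weeks (−0.041 to 0.16), Tfam in A537T-TRAMP at 10 weeks (−0.28 to 0.14), Tfam in KO-TRAMP at 10 weeks (−0.044 to 0.37), Tfam in KO-TRAMP at 30 weeks (−0.22 to 0.27), Tfam in the KO-TRAMP age effect (−0.39 to 0.11), Trmt10c in A537T-TRAMP at 30 weeks (−0.16 to 0.062), Trmt10c in KO-TRAMP at 10 weeks (−0.15 to 0.13), Trnt1 in A537T-TRAMP at 10 weeks (−0.38 to 0.027) and Trnt1 in A537T-TRAMP at 30 weeks (−0.035 to 0.20). The causes were not tested. No paired analysis was possible because the columns carry a library number and no replicate number of the labels.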
